A study of Homo sapiens with 2 samples.

Results

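The genes BCOR, BCORL1, NCOR1, TNRC18, TBL1X, TBL1XR1, SIN3A and SIN3B encode transcriptional corepressors and their close partners. All peaks whose deposited gene symbol was one of these 8 names were taken, which gave 17 of the 6373 peaks of the list, at 6 of the 8 genes. The group was chosen by gene name with the high peak counts and folds of BCOR and TNRC18 already known, so counts, folds and positions are descriptions without a test. The cells were PLC/PRF/5, a long-established line from a human liver cancer, in which a lentivirus drove overexpression of the zinc finger protein ZFP64. Chromatin was precipitated with an antibody to the Flag tag in 1 library (the Flag ChIP) and left unprecipitated in the other (the input). Both libraries carried the overexpression, each was made once, and a Flag ChIP of untagged cells was not used here. No value below therefore has a replicate error, and a peak cannot be told apart from nonspecific signal of the antibody. The list holds no expression values, so the liver identity of the line was not checked against marker genes.

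Corepressors do not bind DNA in a sequence-specific way themselves but are brought to genes by transcription factors. NCOR1 is the scaffold of a complex in which TBL1X and TBL1XR1 join the deacetylase HDAC3 to nuclear receptors and other factors. SIN3A and SIN3B are scaffolds for the deacetylases HDAC1 and HDAC2, and BCOR, a partner of the repressor BCL6, is a core part of a Polycomb complex that ubiquitinates histones. ZFP64 is known as an activator of KMT2A in leukaemia cells.

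Promoter sequences of the 8 genes are shown first, because the peaks met the reference starts unevenly. RefSeq (GRCh38.p14) lists 14 windows for these genes, each from 250 bases before to 50 after a start. A peak overlapped 3 of the 14 windows (21.4%), against 10.3% of all 35116 windows and 23.7% of those with at least 65% GC. Of the 7 windows of these genes with at least 65% GC, 2 were overlapped. The window at the NCOR1 start lay wholly under a peak, that of TNRC18 had 71 bases under a peak, and that of the inner TBL1X start had 25. The SIN3A inner start and TBL1XR1 are shown as windows with no peak. Capitals mark, on either strand, the GC box GGGCGG, the box read by NF-Y, CCAAT, the ETS core CCGGAAG, and the E-box CACGTG.
NCOR1, chr17:16215485-16215784, minus strand: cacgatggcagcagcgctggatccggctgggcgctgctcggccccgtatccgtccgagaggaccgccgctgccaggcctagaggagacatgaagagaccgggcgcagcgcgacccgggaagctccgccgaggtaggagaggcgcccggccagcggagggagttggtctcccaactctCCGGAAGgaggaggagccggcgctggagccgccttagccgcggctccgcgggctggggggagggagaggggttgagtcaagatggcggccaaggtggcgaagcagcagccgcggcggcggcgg
TNRC18, chr7:5423785-5424084, minus strand: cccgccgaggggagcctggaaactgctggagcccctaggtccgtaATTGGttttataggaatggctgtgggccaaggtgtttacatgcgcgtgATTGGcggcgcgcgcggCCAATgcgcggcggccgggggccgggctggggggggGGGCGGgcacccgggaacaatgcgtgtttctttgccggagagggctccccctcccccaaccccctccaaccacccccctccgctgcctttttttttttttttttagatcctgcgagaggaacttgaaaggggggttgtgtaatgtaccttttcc
TBL1X inner start, chrX:9464808-9465107, plus strand: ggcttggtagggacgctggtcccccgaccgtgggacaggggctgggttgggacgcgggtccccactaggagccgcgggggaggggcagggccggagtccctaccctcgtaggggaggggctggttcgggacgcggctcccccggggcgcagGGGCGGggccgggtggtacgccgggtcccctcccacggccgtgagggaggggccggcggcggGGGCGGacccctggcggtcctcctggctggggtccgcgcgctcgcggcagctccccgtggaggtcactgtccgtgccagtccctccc
SIN3A inner start, chr15:75451641-75451940, minus strand: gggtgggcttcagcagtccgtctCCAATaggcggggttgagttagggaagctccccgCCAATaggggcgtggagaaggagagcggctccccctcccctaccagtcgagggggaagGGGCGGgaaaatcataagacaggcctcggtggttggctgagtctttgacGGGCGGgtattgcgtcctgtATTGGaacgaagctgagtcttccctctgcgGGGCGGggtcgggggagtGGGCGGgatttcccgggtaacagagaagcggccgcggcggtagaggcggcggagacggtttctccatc
TBL1XR1, chr3:177197433-177197732, minus strand: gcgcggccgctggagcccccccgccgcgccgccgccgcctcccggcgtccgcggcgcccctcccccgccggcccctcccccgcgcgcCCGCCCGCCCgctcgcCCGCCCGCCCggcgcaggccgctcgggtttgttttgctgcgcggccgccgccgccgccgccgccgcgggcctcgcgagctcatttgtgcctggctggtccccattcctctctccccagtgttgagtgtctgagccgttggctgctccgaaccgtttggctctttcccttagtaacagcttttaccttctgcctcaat

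The letters were counted in the 3 windows overlapped by a peak and the 11 others, which are too few to compare. In the TNRC18 and inner TBL1X windows the bases under the peak, 71 and 25, are the last ones printed. Those bases held none of the letters counted here, so every match in these 2 windows lies outside the peak. GGGCGG, known as a site of SP and KLF factors, was in 2 of the 3 and 7 of the 11, against 45% of all windows and 79.9% of those overlapped by a peak. The NCOR1 window, wholly under its peak, held none, whereas the TBL1XR1 window shown, with no peak on its gene, held 4 and its second window 3. The NCOR1 window was the only one of the 14 with CCGGAAG, held by 10.3% of all windows and 16.1% of overlapped ones. The spaced repeat GGGNNCCC was in 2 of the 3 windows overlapped by a peak and 1 of the 11 others (17.2% of all, 32.2% of overlapped). CCAAT was in 1 of the 3 and 5 of the 11 (34.6% and 24.1%), and the TATA box TATAAA in 1 and 3 (11.5% and 3.33%). CACGTG was in 0 of the 3 and 2 of the 11 (7.26% and 7.8%), and the NRF1 motif in 0 of the 14 (5.78% and 8.76%). Some matches overlap each other, and a match is only a run of letters. GC content was 72.7% in the NCOR1 window, 62% in that of TNRC18 and 78.3% in that of the inner TBL1X start. The TBL1XR1 window shown was as rich, at 75%, and the SIN3A window shown had 64%. The second windows of these genes, also without a peak, had 65.3% and 59.7%. The median was 71.3% for windows overlapped by a peak (quartiles 65 to 76.3) and 57% for the others.

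Among the 8 genes the signal was concentrated at BCOR and TNRC18, which held 13 of the 17 peaks. BCOR had 7 peaks, TNRC18 6, and BCORL1, NCOR1, TBL1X and SIN3A 1 each. These numbers have no interval, since neighbouring peaks of a gene are not independent. No peak was assigned to TBL1XR1 or SIN3B. Of 19974 protein-coding genes, 23.4% had any assigned peak, 0.185% had at least 4 and 0.02% at least 6. BCOR was the one gene of the whole list with as many as 7. All 8 genes are over 50 kb long, and 33.7% of the protein-coding genes of at least 50 kb were overlapped by a peak. Since peak number took part in choosing the genes, nothing is read from these shares.

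**Figure D1:**
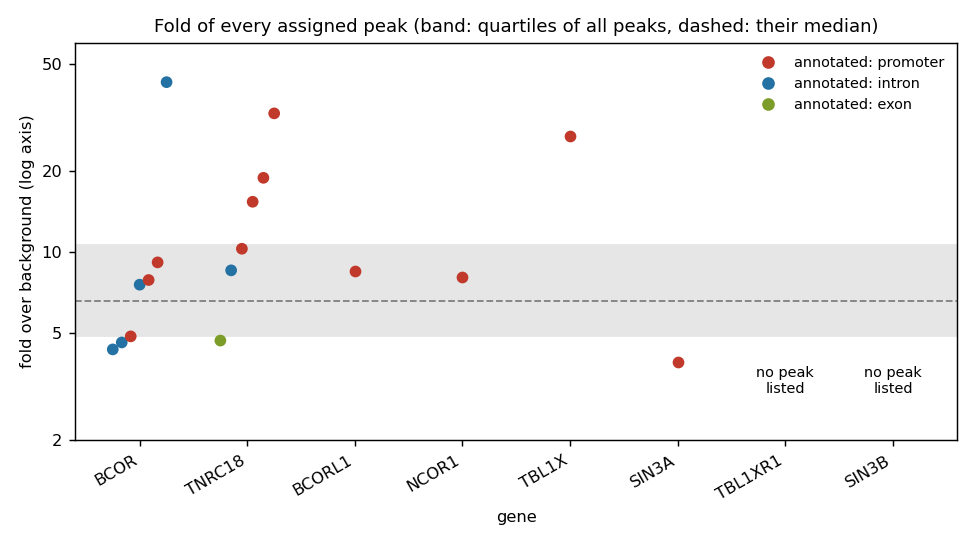
Fold over background of every peak assigned to the 8 genes, on a log axis, coloured by the deposited class. The grey band gives the quartiles of all 6373 peaks (4.87 to 10.6) and the dashed line their median (6.56). BCOR, TNRC18 and TBL1X each reached a fold above 25, and SIN3A lay below the band.

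The fold is the authors' ratio of the Flag ChIP over background at the summit, with 1 added to both. The 17 peaks had a median fold of 8.51 (quartiles 4.86 to 15.4, range 3.90 to 42.8), and all peaks a median of 6.56 (4.87 to 10.6). Of the 17, 6 had a fold of 10 or more, against 27.6% of all peaks. Widths ran from 292 to 2721 bp with a median of 597, against 506 for all peaks. At least 1 kb was reached by 5 of the 17 peaks and by 17.6% of all, and at least 2 kb by 3 of the 17 and by 2.31% of all. The 3 widest were the highest peaks of TNRC18, BCOR and TBL1X.

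Fragment numbers at each summit were recovered from the deposited fold and p-value under the peak caller's Poisson model, which is an inference. All 17 peaks gave a whole number, with a median of 20 fragments (range 11 to 112) over a background of 1.82 (1.47 to 2.63). For all peaks the medians were 20 fragments and 1.99. The background was lower on chromosome X, with a median of 1.64 (quartiles 1.47 to 1.97), than on the other chromosomes, with 2.01 (1.64 to 2.63). BCOR, BCORL1 and TBL1X lie on X and held 9 of the 17 peaks. A lower background raises a fold at equal fragments, and its part in the folds of these 3 genes was not tested.

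**Figure D2:**
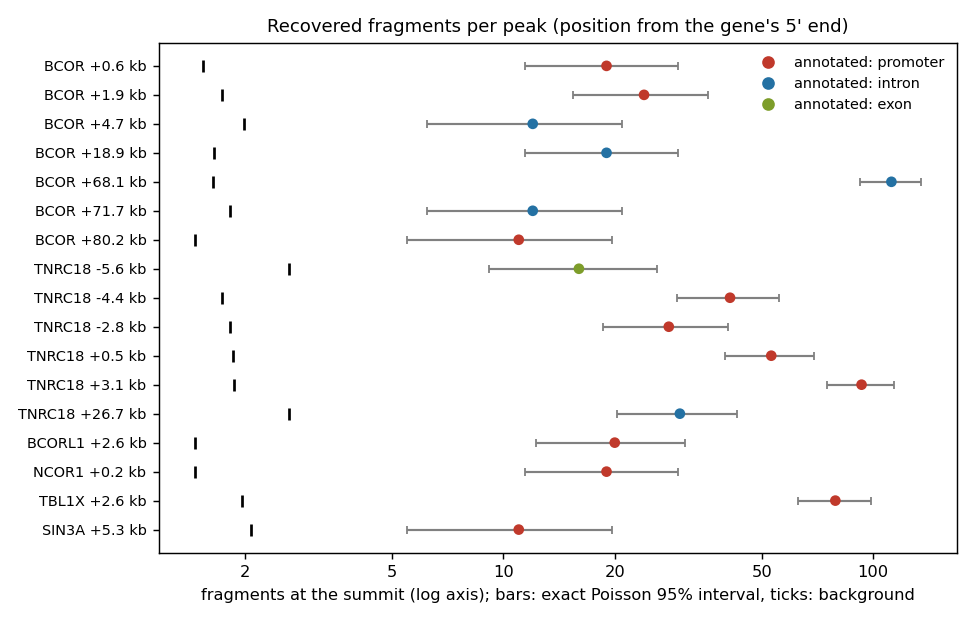
Fragments at the summit of each of the 17 peaks (points, log axis) with the exact Poisson 95% interval, and the background expected there (black ticks). Rows are named by the distance of the summit from the 5′ end of the RefSeq gene. The BCOR peak at 68.1 kb had 112 fragments, and the other 6 BCOR peaks had 11 to 24 with intervals that overlapped.

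BCOR had its highest peak deep inside the gene and not at a start. It lay at chrX:40107656-40110084 in intron 1 of 13, per the deposited annotation, and reached a fold of 42.8 (q-value 7.56e-157). At its summit were 112 fragments (92.2 to 135) over a background of 1.64. The summit lay 68.1 kb from the 5′ end of the gene, 54% of the way along it, and 11782 bp upstream of an inner annotated start. Among 666 intron peaks of the list it was the widest, at 2429 bp, and second in fold. It ranked 9 of 1468 peaks outside promoters, 4 of 120 on X and 164 of 6373 in all. The nearest other gene in the RefSeq table was the noncoding LOC107985687, which ended 1170 bp before the peak.

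The other 6 BCOR peaks were low and fell into an outer and an inner group. Near the 5′ end of the gene (40177277), the peak at chrX:40176359-40176989 had a fold of 7.87 with 19 fragments (11.4 to 29.7). Next to it, chrX:40175197-40175527 had a fold of 9.16 with 24 fragments (15.4 to 35.7), the second highest of the gene. Farther in, intron peaks at chrX:40172498-40172858 and chrX:40158138-40158734 had folds of 4.35 and 7.56. These 4 peaks lay within 18.9 kb of the 5′ end.

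The inner group held the highest peak and 2 low ones beside it. At chrX:40105539-40105830, inside LOC107985687, a peak had a fold of 4.61 with 12 fragments (6.2 to 21.0). At chrX:40096730-40097174, with its summit 339 bp downstream of the inner start, the fold was 4.86 with 11 fragments (5.49 to 19.7). The fold of the highest peak was 8.80 times that of the peak at this start. Since it was singled out as the highest of the gene, this ratio is a description only. Between the outer and the inner group lay 48053 bp with no peak. No BCOR peak lay over the RefSeq window at the 5′ end of the gene, where the nearest was 239 bp away, or over the second RefSeq window, chrX:40146584-40146883, which lies in that stretch without peaks. The last 45.5 kb of the gene, 36.1% of its length, held none.

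**Figure D3:**
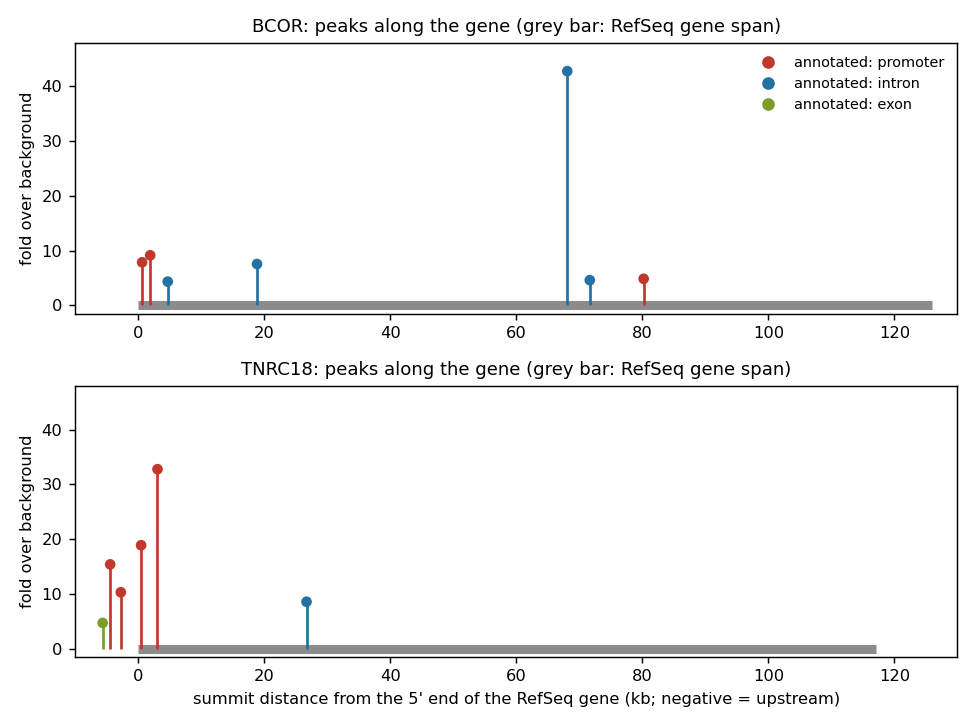
Peaks along BCOR (top) and TNRC18 (bottom). The horizontal axis is the distance of each summit from the 5′ end of the RefSeq gene in kb, negative upstream, the height is the fold over background, and the grey bar is the gene. BCOR peaks were spread over 80.3 kb with 1 high peak in an intron, and 5 of 6 TNRC18 peaks stood within 6 kb of the 5′ end.

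TNRC18, which encodes a large protein with a BAH domain reported to read a repressive histone mark and to bring in the HDAC, SIN3 and NCOR complexes, showed a dense cluster at its start. The 5 peaks from 5419251 to 5429986 on chromosome 7 covered 58% of 10.7 kb. No other stretch of that length in the list held 5 peaks or more. The highest, chr7:5419251-5421971, had a fold of 32.8, a q-value of 1.44e-117 and 93 fragments (75.1 to 114) over a background of 1.87. Its width of 2721 bp ranked 22 of 6373. The deposited class was promoter, but its summit lay 2784 bp downstream of the assigned start. The peak over the start itself, chr7:5422415-5423855, was lower, with a fold of 18.9 and 53 fragments (39.7 to 69.3). Between these 2 peaks lay 443 bp.

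The remaining peaks of the cluster lay upstream of TNRC18. They had folds of 10.3 at chr7:5426428-5426867, 15.4 at chr7:5427900-5428875 and 4.69 at chr7:5429336-5429986. The fragments were 28 (18.6 to 40.5), 41 (29.4 to 55.6) and 16 (9.15 to 26.0). None of the 3 overlapped the RefSeq span of TNRC18. They overlapped the noncoding genes LINC02983 (5426277 to 5428927) and LINC03073 (5428184 to 5429636), and the peak at 5427900 overlapped both. The outermost was classed as an exon, but that exon belongs to a transcript with a single exon outside TNRC18. Both peaks at the 5′ end of the gene also overlapped TNRC18-AS1 (5419271 to 5423126), and assignment by nearness does not tell these genes apart. A last peak, chr7:5396871-5397354 in intron 2 of 29, stood 26.7 kb from the 5′ end with a fold of 8.55 and 30 fragments (20.2 to 42.8). The 90.1 kb beyond it, 77% of the gene, held no peak.

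The NCOR1 complex had peaks at NCOR1 and TBL1X but not at TBL1XR1. The NCOR1 peak, chr17:16214853-16215931, covered the start and had a fold of 8.10. Its summit held 19 fragments (11.4 to 29.7), and the background there was 1.47, the lowest value in the list. The summit lay 204 bp past the assigned start. The neighbouring gene PIGL began 1279 bp beyond the peak. RefSeq lists 4 pseudogenes named after NCOR1, 3 after TNRC18 and 1 after BCOR, and the sources used here do not say how reads that match several places were treated.

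At TBL1X, 1 wide peak stood alone. It spanned chrX:9465083-9467435 (2353 bp) and had a fold of 26.9 (q-value 1.43e-92). Its summit held 79 fragments (62.6 to 98.5) where 1.97 were expected. It began 1788 bp inside the gene, at an inner start, with the summit 613 bp past that start. The window of the outermost TBL1X start had no peak, and the nearest other peak of the list was 267314 bp away. The summit of TBL1X held more fragments than that of NCOR1.

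TBL1XR1, the close relative of TBL1X, had no assigned peak and none over its 182 kb. The peak nearest to it was 1947 kb away and was assigned to PIK3CA. The list names peaks that passed the caller's threshold, and the weakest had 8 fragments at the summit. A weaker signal at TBL1XR1 was not detectable from it.

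The SIN3 scaffolds had the least. The SIN3A peak, chr15:75450443-75450744, had a fold of 3.90, a q-value of 0.00191 and 11 fragments (5.49 to 19.7) over 2.08. Of all peaks, 6.83% had a lower fold. It lay 897 bp from the window of the inner start and 5071 bp from the 5′ end of the gene. SIN3B had no assigned peak, and the nearest of the list was 168 kb away. The only SIN3B window in the promoter table lies 33626 bp inside the gene, so its outer start was not examined for sequence.

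BCORL1, the paralogue of BCOR, had 1 peak where BCOR had 7. It lay at chrX:129982610-129983015 with a fold of 8.51, a q-value of 4.23e-14 and 20 fragments (12.2 to 30.9) over 1.47. The peak lay between the 2 RefSeq windows, 1582 bp from the outer and 1121 bp from the inner. It overlapped a further annotated start, with its summit 257 bp downstream. Its fragment interval overlapped those of the 2 BCOR peaks nearest the 5′ end of that gene.

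**Figure D4:**
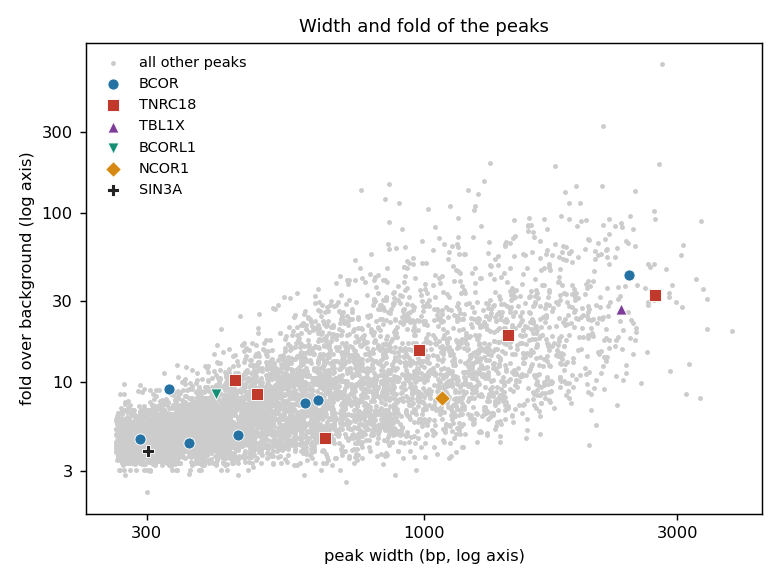
Width (bp) and fold over background of all 6373 peaks, both on log axes, with the peaks of the 6 genes marked. The widest peaks of TNRC18 (2721 bp), BCOR (2429 bp) and TBL1X (2353 bp) were also the highest of each gene, and the SIN3A peak (302 bp) sat in the lower left corner.

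By class, 11 of the 17 peaks were annotated to promoters (64.7%, exact binomial 95% interval 38.3 to 85.8), against 77% of all peaks. Introns held 5 (29.4%), against 10.5% of all peaks, and 4 of these 5 were in BCOR. The class of exon had 1 (5.88%), against 1.66% of all peaks. None was distal intergenic, against 627 of all 6373 peaks, and 17 peaks are too few to read anything from this. The interval of the promoter share includes the share of all peaks. With a promoter window of 1 kb it does not, since 7 of the 17 peaks (41.2%, 18.4 to 67.1) and 71.4% of all peaks then counted. The peaks of a gene are not independent, and 13 of the 17 belong to BCOR and TNRC18, so neither interval tests a difference. The start itself was overlapped by 4 of the 17 (23.5%), those of NCOR1, TBL1X, BCORL1 and TNRC18, and by 46.6% of all peaks. Of the 11 promoter peaks, 9 had their summit downstream of the assigned start, from 185 to 2784 bp, against 69.5% of all 4905 promoter peaks. Of the 17, 12 had a −log10 q of at least 10, against 49.8% of all peaks. Per 100 kb of gene, the spans of the 8 genes held 1.29 peaks and those of all protein-coding genes 0.425. BCOR had 5.55, TNRC18 2.56, BCORL1 1.29, SIN3A 1.16, NCOR1 0.536 and TBL1X 0.390.

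Partners of these proteins, other corepressors and 2 BAH relatives of TNRC18 were taken as lists of 75 genes in all. Any assigned peak was found at 37 of them (49.3%, 37.6 to 61.1) and a promoter peak at 34 (45.3%, 33.8 to 57.3), where all protein-coding genes had 23.4% and 20.3%. The lists include genes used in most cells, and neither expression nor GC content was matched, so nothing particular to corepressors is read from this. Of the NCOR and HDAC3 partners 5 of 12 had a peak, and of the genes listed with the SIN3 and HDAC1/2 complex 12 of 27. In the BCOR complex 4 of 9 had one, and among other corepressors 14 of 25.

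No peak was assigned to the deacetylase genes HDAC1, HDAC2 and HDAC3, or to GPS2, a partner of NCOR1, or BCL6. Among the NCOR and HDAC3 partners the class II deacetylase gene HDAC7 was highest, with a promoter peak of fold 57.1. CORO2A had a peak of fold 4.86 in an intron. Among the genes listed with the SIN3 complex the highest was SAP30, an accessory subunit, with a promoter peak of fold 65.6. Next were TET1, which encodes a DNA demethylase (29.5), and ING1, which encodes a histone reader (25.5). In the BCOR complex, PCGF1 and RING1 were among the 5 genes with none, and YAF2 (24.6), the deubiquitinase gene USP7 (9.66) and the demethylase gene KDM2B (7.75, in an exon) were highest. Among other corepressors the order was NRIP1 (57.2), a corepressor of nuclear receptors, ZMYND11 (36.2), a histone reader, and RCOR3 (15.8), of the CoREST family. Genes without a peak were read as not listed, not as free of signal.

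**Figure D5:**
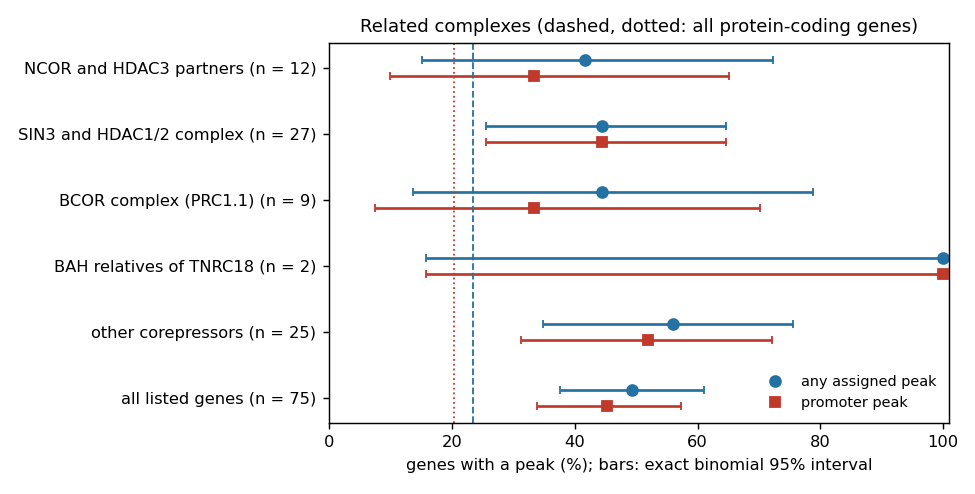
Share of genes with any assigned peak (circles) and with a promoter peak (squares) in each list of partner or related genes, with exact binomial 95% intervals. The dashed and dotted lines give the same shares over 19974 protein-coding genes, 23.4% and 20.3%. All 75 genes together reached 49.3% and 45.3%, and the intervals of the shorter lists are wide.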

How the data were processed

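Flag ChIP and input DNA of PLC/PRF/5 cells overexpressing ZFP64 were sequenced once each. Per the submitters' processing notes, the tools were MACS2 2.2.7.1, Bowtie2 2.4.1, deepTools 3.5.0 and SAMtools, with no role given, on build hg38. The authors deposited 1 table of annotated narrow peaks, in which each peak has a fold, the linear ratio of Flag ChIP to background where the peak is highest. It also holds the p-value and q-value the authors deposited for each peak, with class, nearest gene, width and distance to a start. The sources used here do not name the annotation tool, the read layout or the treatment of duplicate reads. Of the other deposited tables, none was used. Depth is given as fragments at summits, since library totals were not used.

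Peaks were selected by gene symbol, checked against the gene identifiers of a RefSeq table of GRCh38.p14 (8 of 8 matched). The members and lists were chosen with earlier results of these data known. Related genes were named by a rule that takes the 3 highest folds in each of 4 lists. The BAH list, of 2 genes, stands outside it and is given among other observations. The BAH genes and genes without a peak were singled out after their values were seen. A result that the naming rule takes is not reported here. A gene on a chromosome outside 1 to 22 and X was left out of the lists. CIR1, planned for the list of other corepressors, was also not among the genes counted. Similarity was sought among genes with at least as many peaks as BCOR, and there was none. Fragments (k) and background (b) were solved from fold = (k + 1)/(b + 1) and the Poisson upper tail of b above k. A whole k was found for 6293 (99.86%) of the 6302 peaks whose p-value was not 0, within 0.001 on the −log10 p scale. The solver was tested on simulated data. Fragment counts have exact Poisson and shares exact Clopper-Pearson 95% intervals, for counting error only and with the background taken as fixed. No test was run. Computations used Python 3.11.15, pandas 2.3.3, numpy 2.4.6 and scipy 1.17.1.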

Additional observations from a re-analysis of the deposited data

How the results depend on the processing

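With a fold of at least 5, or a −log10 q of at least 10, 12 of the 17 peaks remained and 75% of them were promoter peaks. In both cases the median fold was 9.72 and the median width 804 bp. SIN3A then had no peak, so its highest fold has no value there. Counting peaks over the RefSeq gene spans gave 14 peaks, with a median fold of 8.30, because the 3 upstream peaks of TNRC18 fall outside. Joining peaks within 1 kb also gave 14. A promoter window of 1 kb gave 41.2% (18.4 to 67.1), an interval that left out the 71.4% of all peaks. With the deposited classes the interval included the share of all peaks. Most of the 17 peaks belong to BCOR and TNRC18 and are not independent, so neither interval tests a difference. Spans with 10 kb added on either side gave 1.53 peaks per 100 kb. Of 26 alternatives over 12 results, 25 stayed within the interval of the value or within 1.5 times of the count. This rule is lenient, since the 1 kb promoter share passed it, and for medians the interval is the quartile range of the peaks. A highest fold that passes a filter cannot change under it, and the fold and q filters kept the same 12 peaks. The tally is therefore no measure of robustness. The exception by this rule was the number of partner and related genes with a peak. It fell from 37 to 22 of 75 with a −log10 q of at least 10, where 13.1% of all protein-coding genes had one. That threshold keeps fewer peaks. Few fragments lie behind the SIN3A peak and the low BCOR peaks (11 and 12). Sequence under the peaks away from RefSeq windows was not analysed here. No paired analysis was possible because Flag ChIP and input were sequenced once each.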

Other observations

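BAHCC1, a gene with a BAH domain like TNRC18, was chosen for this remark after its values were seen. It had 4 promoter peaks within 7.38 kb of chromosome 17, with folds of 3.5, 7.01, 27.3 and 114. Its highest, chr17:81395985-81397947, was 1963 bp wide, and its q-value was deposited as 0. As at TNRC18, the peaks of BAHCC1 stood close together around annotated starts, while those of BCOR were spread along the gene. With BAHD1, which had 1 promoter peak of fold 9.37, both BAH relatives on the list had a promoter peak. The exact 95% interval of this share, 15.8 to 100%, includes the 20.3% of all protein-coding genes with a promoter peak. Nothing particular to BAH genes is therefore read from it. Whether the arrangements of peaks at TNRC18, BAHCC1 and BCOR differ from those of other genes was not tested.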
